A study of Mus musculus with 2 samples.

Results

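The CDC-like kinases Clk1, Clk2, Clk3 and Clk4 were read out in polysomes of the neonatal mouse brain. They are 4 of the 45578 genes and hold 39 of the 109463 transcripts in the deposited count table. A transcript was assigned to a kinase by its name without the trailing number. The genes were chosen by measured values as well as by name, since the difference in Clk1 between the replicates and the spread of its footprints over non-coding isoforms were known. Those values are therefore given as a description, without a test.

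Both samples came from control brains of FVB mice at postnatal day 5 with the genotype Smn+/-; SMN2tg/0, so both carried a single functional copy of mouse Smn and a human SMN2 transgene. They formed 1 group of 2 biological replicates, and no condition was compared. Ribosome-protected fragments (footprints) of 25 to 35 nucleotides were obtained by RNase I digestion of pooled polysomal fractions. RNA levels were not analysed here, so a footprint level combines the amount of an mRNA with its translation. Whole brain was used, so fewer cells of a type and less RNA per cell cannot be told apart.

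CDC-like kinases are dual-specificity kinases of the LAMMER family that act mainly in the nucleus. They phosphorylate the arginine- and serine-rich (SR) proteins, which select splice sites, and so move SR proteins out of storage speckles and change splicing. The kinases also control their own transcripts: skipping of an exon gives a short reading frame without the kinase domain, and partly spliced Clk1 and Clk4 RNA with retained introns is known to be held in the nucleus and spliced on demand.

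Replicate 1 held 1866831 footprints and replicate 2 held 5261878, a ratio of 2.82. Levels are given as CPM, the count divided by the library total and scaled to 1e6 footprints, and intervals are exact binomial (Clopper-Pearson) at 95%, which cover counting error only. With 3 counts as the limit, an undetected gene could have reached 1.61 CPM in the shallower library and 0.570 CPM in the deeper one. Markers of neurons, astrocytes and oligodendrocytes had footprints in both replicates for 5 of 5 genes each. Summed neuronal markers reached 4775 CPM in replicate 1 and 3778 CPM in replicate 2. Of 6 genes of other organs, 4 (Alb, Apoa2, Ins2 and Krt5) had no footprint in at least 1 replicate. The other 2, Acta1 and Myh6, had footprints in both. The 6 genes summed to 78.7 and 56.3 CPM in replicates 1 and 2, with the most on Acta1 (140 and 264 footprints).

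Together the 4 kinases took 104 CPM in replicate 1 (195 footprints) and 129 CPM in replicate 2 (681 footprints). Clk2 and Clk3 supplied most of this in replicate 1, with 37.9% (interval 31.1 to 45.2) and 40.5% (33.6 to 47.8) of the kinase footprints. In replicate 2 the footprints were spread more evenly, with 32.9% (29.4 to 36.6) on Clk2, 26.9% (23.6 to 30.4) on Clk1, 24.2% (21.1 to 27.6) on Clk3 and 16.0% (13.3 to 19.0) on Clk4. The Clk1 share had been 11.8% (7.63 to 17.2) and the Clk4 share 9.74% (5.97 to 14.8) in replicate 1.

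Clk1 (ENSMUSG00000026034), the founding member of the family, collected 23 footprints in the first replicate and 183 in the second. That is 12.3 CPM (interval 7.81 to 18.5) against 34.8 CPM (29.9 to 40.2), averaging 23.5 ± 15.9 (SD, n = 2). The replicates lay apart and their intervals did not overlap: at the level of replicate 2, replicate 1 would have held 64.9 footprints. The log2 ratio of replicate 2 over replicate 1 was 1.34, counting interval 0.74 to 2.06, with TMM (trimmed mean of M values) scaling and a prior of 0.5 CPM. This ratio was higher than that of 98.6% of the genes tested. The Clk1 difference was among the values by which the genes were chosen, so its intervals and rank are a description, not a test. With coding transcripts in view, the ratio was smaller. On coding transcripts alone, rescaled among themselves, the log2 ratio of Clk1 was 0.67.

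Clk4 (ENSMUSG00000020385), the closest relative of Clk1, had the lowest counts of the family, 19 and 109. Replicate 1 stood at 10.2 CPM (interval 6.13 to 15.9) and replicate 2 at 20.7 CPM (17.0 to 25.0), averaging 15.4 ± 7.45 (SD, n = 2). In CPM, scaled to library totals, replicate 2 was again the higher one, without overlap of the intervals. The log2 ratio was 0.87 (counting interval 0.19 to 1.69) with TMM and 0.99 with library totals. TMM sizes bring the levels of the replicates closer, so the lack of overlap depends on the scaling. On Clk4-001, its transcript with the most footprints, the log2 ratio was -0.30, and on coding transcripts 0.48, with the scaling redone for each set.

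Clk2 (ENSMUSG00000068917), which acts on SR proteins and is also known from hepatic insulin signalling, had 74 and 224 footprints. Replicate 1 gave 39.6 CPM (interval 31.1 to 49.8), replicate 2 gave 42.6 CPM (37.2 to 48.5), and their average was 41.1 ± 2.07 (SD, n = 2). The replicates overlapped, and the log2 ratio was -0.02 (counting interval -0.41 to 0.38) with TMM and 0.10 with library totals.

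Clk3 (ENSMUSG00000032316) was the 1 kinase with a lower level in replicate 2, with 79 and 165 footprints. This corresponded to 42.3 CPM (interval 33.5 to 52.7) against 31.4 CPM (26.8 to 36.5), averaging 36.8 ± 7.75 (SD, n = 2). Part of the 2 intervals was shared in CPM, scaled to library totals. The log2 ratio was -0.55 (counting interval -0.95 to -0.15) with TMM and -0.43 with library totals. TMM sizes move the levels of the replicates further apart, so this overlap depends on the scaling too.

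**Figure D1:**
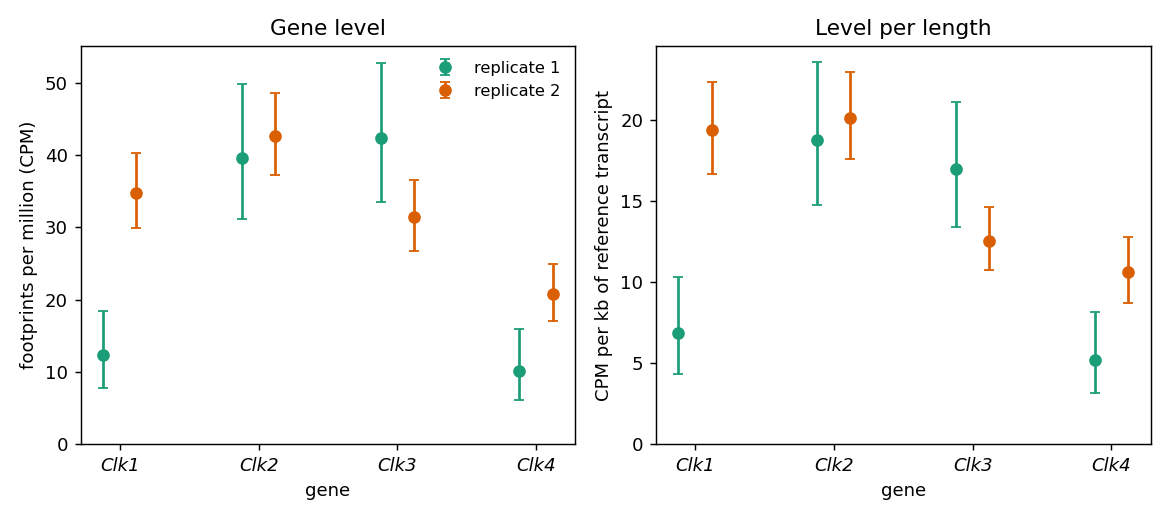
Level of each kinase gene in both replicates (points) with exact binomial 95% intervals (bars), in CPM at left and in CPM per kilobase of the transcript with the longest coding sequence at right. Clk1 and Clk4 sit higher in replicate 2 (34.8 against 12.3 CPM and 20.7 against 10.2 CPM), and Clk2 overlaps.

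Genes can be ranked only per length, so the gene's CPM was divided by the length of its transcript with the longest coding sequence. This is the whole transcript length, untranslated regions included. On this scale Clk2 had the highest mean level, 19.5 ± 0.981 CPM per kilobase (SD, n = 2), followed by Clk3 at 14.8 ± 3.11, Clk1 at 13.1 ± 8.84 and Clk4 at 7.93 ± 3.82. The 2 values of Clk2 (18.8 and 20.2) lay above those of Clk3 (17.0 and 12.6), although their counting intervals overlapped in replicate 1. The values of Clk3 and Clk1 overlapped, as did those of Clk1 (6.86 and 19.4) and Clk4 (5.22 and 10.6), so these neighbours in the order did not differ beyond their spread. The mean Clk2 level was 2.46 times that of Clk4. This scale divides the footprints of all isoforms by the length of 1 coding transcript, and the order depends on it. With the footprints of coding transcripts only, a setting added after the values were seen, Clk3 came first at 14.8 CPM per kilobase, before Clk2 at 10.8 ± 0.907, Clk4 at 3.80 ± 1.10 and Clk1 at 2.48 ± 0.979 (SD, n = 2).

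How often libraries of this depth differed was measured over 16427 genes by a two-sided exact binomial test with Benjamini-Hochberg adjustment. It compares 2 libraries and allows for counting error only, not for differences between animals. It called 17.4% of all genes, and 6.15% of the 43655 transcripts that averaged 10 or more counts. The exact test of edgeR, which also allows for a dispersion estimated from the same pair, called 11 of the 16427 genes, with 719 at an unadjusted p under 0.05. The kinases were chosen with this contrast known, so no call is given for them. Library totals moved the median log2 ratio of all genes from 0.01 to 0.13, and the share of called genes that were higher in replicate 2 from 34.2% to 60.7%.

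Markers of other cell types differed between the libraries too. Summed red cell markers (4 of 4 genes with footprints) were at 2474 and 1685 CPM in replicates 1 and 2, choroid plexus markers (2 of 2) at 590 and 284 CPM, and oligodendrocyte markers (5 of 5) at 784 and 961 CPM. Astrocyte markers (5 of 5) were at 1601 and 1431 CPM, microglial markers (5 of 5) at 223 and 222 CPM, and endothelial markers (3 of 3) at 197 and 152 CPM. Sums can hide single genes: 3 of 5 microglial markers were called, although their sum hardly differed. Called too were 4 of 4 red cell, 1 of 2 choroid plexus and 4 of 5 oligodendrocyte markers. For neurons it was 3 of 5, for astrocytes 1 of 5 and for endothelium 1 of 3, against 17.4% of all genes. The part of these cell types in the kinase ratios was not tested.

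**Figure D2:**
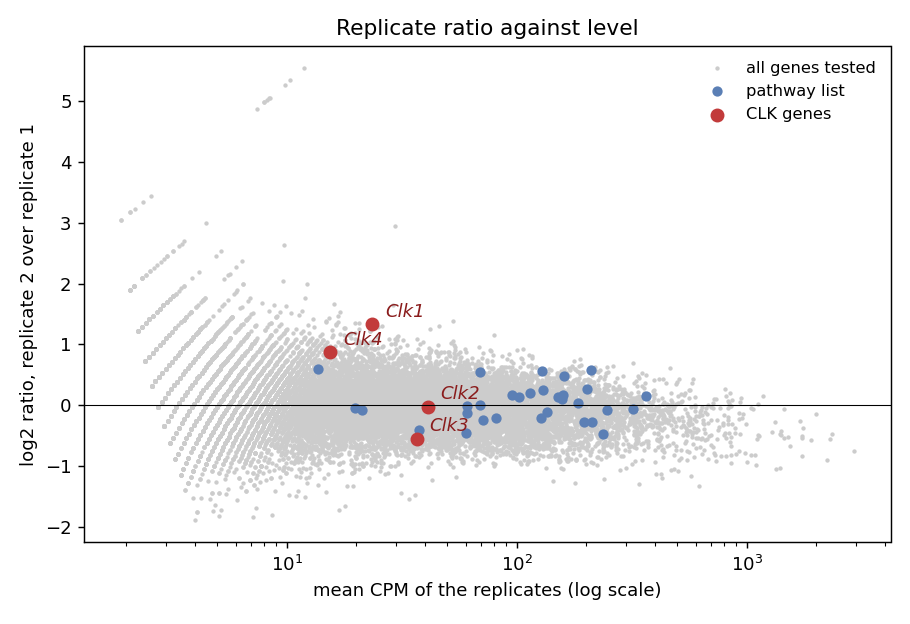
Log2 ratio of replicate 2 over replicate 1 against mean CPM (log scale) for all 16427 genes tested (grey), the pathway genes described further on (blue) and the kinases (red). Clk1 at 1.34 and Clk4 at 0.87 exceed 98.6% and 95.2% of all genes tested, Clk2 at -0.02 lies in the middle and Clk3 at -0.55 below it.

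The transcripts of the family fall into 4 annotated classes. Of the 39 transcripts, 11 are protein coding, 18 have a retained intron, 6 are targets of nonsense-mediated decay (NMD, which destroys mRNAs with an early stop codon) and 4 are processed transcripts without a reading frame. These classes took 505, 230, 119 and 22 of the 876 kinase footprints. Transcripts of a gene share exons, and how fragments that match several of them were counted is not given in the sources used here. For 88 pairs of same-length coding transcripts within a gene, the mean squared difference over the sum of the counts was 0.966. On this measure double counting gives 0. Independent counts give 1, and so does a random split of shared fragments between the pair, so the measure cannot tell these apart. To which isoform a fragment from a shared exon was assigned is not recorded, so a footprint listed on a non-coding isoform may come from an exon of the coding mRNA.

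**Figure D3:**
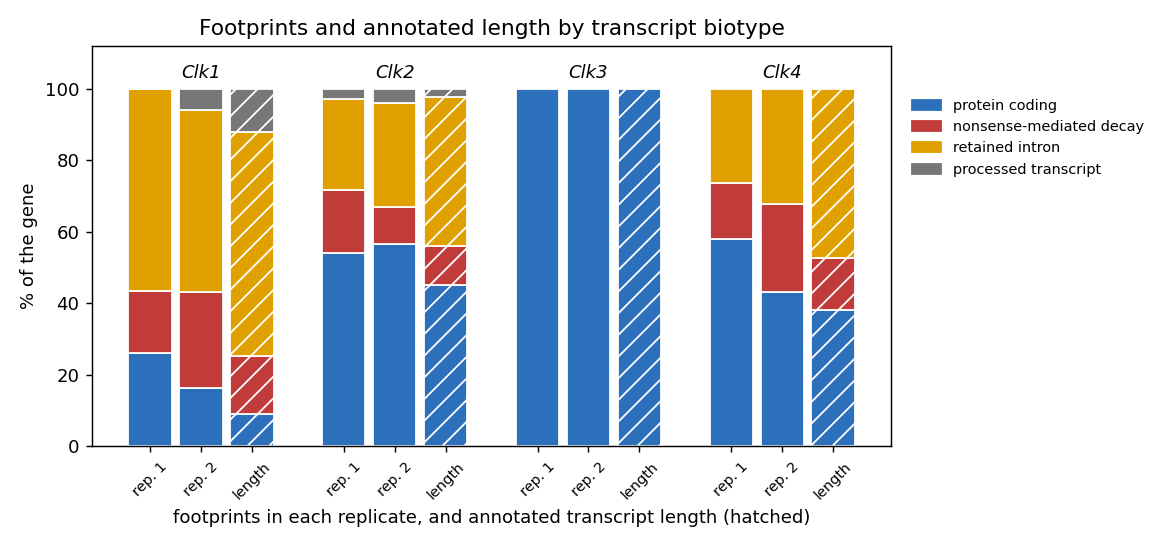
Share of each gene's footprints by transcript biotype in replicates 1 and 2, beside the share of each biotype in the summed annotated length of the gene's transcripts (hatched). Clk1 has 26.1% and 16.4% of its footprints on its coding transcript, which makes up 9.02% of the length, and Clk3 has a single coding transcript.

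Clk1 carried the smallest coding share of the 4. Its single coding transcript, Clk1-001 (1796 nucleotides, a reading frame of 483 codons), had 6 and 30 footprints, or 26.1% (interval 10.2 to 48.4) and 16.4% (11.3 to 22.6) of the gene. Its 7 retained-intron transcripts had 13 and 93 footprints, or 56.5% (34.5 to 76.8) and 50.8% (43.3 to 58.3), and 64 of these 106 footprints were on the 2 longest, Clk1-002 and Clk1-003. Both NMD transcripts, Clk1-004 and Clk1-005, have a reading frame of 135 codons, and a 3' untranslated region of 1150 and 983 nucleotides where Clk1-001 has 197. They held 4 and 49 footprints together, or 17.4% (4.95 to 38.8) and 26.8% (20.5 to 33.8). The 3 processed transcripts had 0 and 11.

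The Clk1 difference between replicates was spread over these classes. All 13 Clk1 transcripts had a higher CPM in replicate 2, from 5 transcripts without a footprint in replicate 1 to Clk1-013 with 1.07 and 1.14 CPM, though isoforms with common exons are not independent. Of the 22.5 CPM by which replicate 2 was higher, retained-intron transcripts supplied 10.7, NMD transcripts 7.17, the coding transcript 2.49 and processed transcripts 2.09. The coding transcript alone stood at 3.21 CPM (interval 1.18 to 7.0) and at 5.70 CPM (3.85 to 8.14), with overlapping intervals. On the NMD transcripts it was 2.14 CPM (0.584 to 5.49) and 9.31 CPM (6.89 to 12.3), without overlap, as on the retained-intron transcripts, with 6.96 CPM (3.71 to 11.9) and 17.7 CPM (14.3 to 21.7).

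Per length, the coding transcript of Clk1 had the highest value of the 4 classes in both replicates. It had 1.79 and 3.17 CPM per kilobase, against 0.661 and 2.87 for NMD transcripts, 0.559 and 1.42 for retained-intron transcripts and 0 and 0.865 for processed transcripts. The counting intervals of the coding and NMD classes overlapped on this scale in both replicates, and those of the coding and retained-intron classes in replicate 1. The coding transcript makes up 9.02% of the summed Clk1 transcript length, in which shared exons count several times, and retained-intron transcripts 62.5%.

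Clk2 kept most of its footprints on coding transcripts. Its 5 coding transcripts had 40 and 127 footprints, or 54.1% (interval 42.1 to 65.7) and 56.7% (49.9 to 63.3). Clk2-001, Clk2-002 and Clk2-003 encode 499, 498 and 500 codons and had 12, 9 and 10 footprints in replicate 1 and 30, 34 and 29 in replicate 2. The counts of these transcripts of nearly equal length lay within one another's counting intervals. The NMD transcript Clk2-005, with a reading frame of 136 codons, had 13 and 23 footprints. Clk2-004, the longest of the 4 retained-intron transcripts at 3168 nucleotides, had 11 and 35. Per length, retained-intron transcripts had the lowest value, 1.42 and 1.72 CPM per kilobase. Coding transcripts had 2.74 and 3.09, the NMD transcript 3.69 and 2.32 and the processed transcript 2.69 and 4.29, so no one class led in both replicates.

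Clk4 divided its few footprints over 14 transcripts. The full-length coding transcript Clk4-001 (481 codons) had 6 and 14 footprints, or 31.6% (interval 12.6 to 56.6) and 12.8% (7.20 to 20.6) of the gene. The other coding transcripts have shorter frames: Clk4-003 and Clk4-004 of 301 codons each, with 4 and 14 and with 1 and 8 footprints, and Clk4-005 with an incomplete frame and 0 and 11 footprints. The 3 NMD transcripts held 3 and 27 footprints together, and the 7 retained-intron transcripts 5 and 35. As in Clk1, the difference between the replicates was mostly outside the coding class, with 3.04 of 10.5 CPM on coding transcripts, 3.52 on NMD transcripts and 3.97 on retained-intron transcripts. The CPM was higher in replicate 2 for 11 of the 14 transcripts, and lower for Clk4-001, Clk4-011 and Clk4-013. Per length, coding transcripts had 1.04 and 1.57 CPM per kilobase, NMD transcripts 0.750 and 2.39 and retained-intron transcripts 0.380 and 0.944. Counts this small give wide intervals, and Clk4-001 itself did not differ between the replicates beyond them.

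Clk3 was listed with a single transcript, Clk3-201, of 2494 nucleotides with 638 codons, the longest reading frame of the family. Its 79 and 165 footprints were therefore all on a coding transcript. Its density of 17.0 and 12.6 CPM per kilobase was above that of the other 38 transcripts, whose highest mean was 4.84 (Clk2-008), but these divide the footprints of their genes. On coding transcripts alone the mean level was 36.8 CPM for Clk3, 22.8 for Clk2, 7.41 for Clk4 and 4.46 for Clk1.

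**Figure D4:**
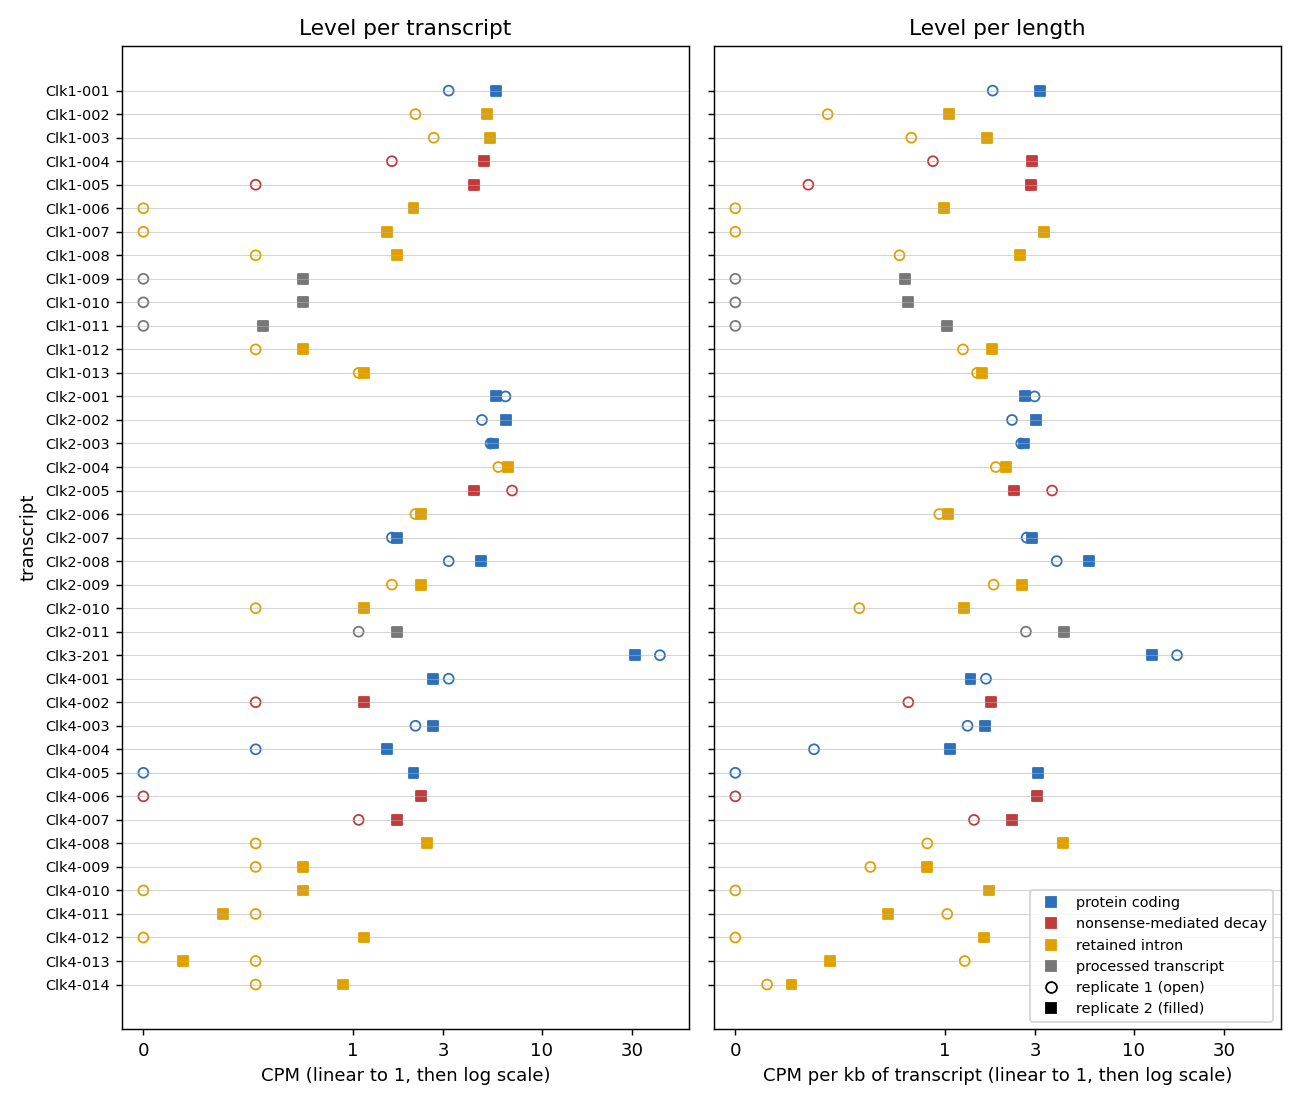
CPM (left) and CPM per kilobase (right) of the 39 kinase transcripts, coloured by biotype, with open circles for replicate 1 and filled squares for replicate 2; axes are linear to 1 and logarithmic above. All 13 Clk1 transcripts lie higher in replicate 2, 9 of 39 kinase transcripts have no footprint in replicate 1 and none is at 0 in replicate 2.

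The isoform make-up was set beside that of 10518 genes that have a coding transcript and at least 20 footprints in each replicate. The median gene had 89.3% of its footprints on coding transcripts, where Clk1 had 21.2% ± 6.85 (SD, n = 2), and 50 of the genes had a lower coding share than Clk1. These genes include some, such as Clk3, with coding transcripts only, whose coding share is 100% by annotation. Clk1 has 1 coding transcript among 13, so its rank reflects the annotation as well as the footprints. Clk2 at 55.4% ± 1.87 and Clk4 at 50.5% ± 10.4 had a higher coding share than 14.9% and 11.2% of genes. Among the 4657 genes with a retained-intron transcript, the median share on that class was 15.8%. Clk1 had 53.7% ± 4.03, exceeded by 150 genes, Clk4 29.2% ± 4.10 and Clk2 27.3% ± 2.36. The Clk4 shares depend on the counting: over transcripts averaging 5 or more counts its retained-intron share was 12.8%, under that median, and with counts divided by length its coding share was 32.2%. For NMD transcripts, the median of 2132 genes that have one was 19.0%, and Clk1, Clk4 and Clk2 were at 22.1%, 20.3% and 13.9%.

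Genes with the most similar make-up were found among 11751 genes by the Euclidean distance over 8 values, the shares of the 4 classes in each of 2 libraries. Mettl17 (distance 9.83 percentage points) and Klhl20 (11.97) were nearest to Clk1. In Mettl17, 54.8% and 51.0% of the footprints were on retained-intron transcripts and 23.8% and 22.4% on coding ones. Evi5l (7.27) and Slc25a22 (7.64) were nearest to Clk2, and Man2c1 (5.57) and Slc25a40 (8.32) to Clk4, whose 19 footprints in replicate 1 are just under the minimum set for the other genes. Clk3 shared its make-up, all footprints on coding transcripts, with 3999 genes.

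A list of 33 genes that work with the kinases was followed through the same comparison of the libraries. Of these, 31 averaged 10 or more counts, and 9 were called, 5 higher and 4 lower in replicate 2, or 29.0% of the list. Of all genes tested 17.4% were called, 5.95% higher and 11.5% lower. All 31 averaged 50 or more counts, and at that level 2959 of 11057 genes were called, a larger share than 17.4%. The share of the list is therefore near the background. None of the 31 was called by the exact test of edgeR (0 at an unadjusted p under 0.05). Its dispersion came from the same libraries and takes in the difference under test, so it cannot decide whether the calls would hold. The binomial calls allow for counting error alone. The median log2 ratio of the list was 0.01, as for all genes. With library totals 10 were called, 9 higher and 1 lower, so the split by direction rests on the scaling. Srpk3 had no footprint in either replicate and Dyrk4 had 1 in all.

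Of the 9 kinases that share the SR substrates or the CLK fold, 7 were tested and none was called by the exact binomial test with TMM or library totals (1 of them, Dyrk2, at an unadjusted p under 0.05 with TMM). With 17.4% of all genes called, or 2959 of 11057 of those averaging 50 or more counts, 7 genes are too few to tell 0 from the background. Srpk2, an SR protein kinase with high expression in brain, had 145 and 170 CPM and a log2 ratio of 0.10 (adjusted p = 0.588, exact binomial test). Dyrk1a, a kinase dosage-sensitive in brain development, had 93.2 and 111 CPM and a log2 ratio of 0.13 (adjusted p = 0.577, exact binomial test). Per length, the mean level of Srpk2 was 24.3 CPM per kilobase and that of Dyrk1a 17.8, beside 7.93 to 19.5 for the CDC-like kinases. These values divide by whole transcripts, of 6491 nucleotides for Srpk2, 5759 for Dyrk1a and 1796 to 2494 for the CDC-like kinases. The coding part of these lengths was not compared, so the values do not rank these genes by footprints per coding length.

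The 19 SR proteins and SR-like splicing regulators, a group that includes substrates of the kinases, were all tested. Of these, 8 were called (42.1%, against 17.4% of all genes), none of them by the exact test of edgeR. All 19 averaged 50 or more counts, and 2959 of 11057 genes at that level were called, so the 17.4% understates their background. Srsf1, Srsf2, Srsf3 and Srsf9 were lower in replicate 2, and Srsf10, Tra2b, Son and Bclaf1 higher, names given after their values were seen. With library totals Srsf2 alone was called as lower, and Srsf11, Srrm1 and Srrm2 joined the higher ones. Bclaf1, a large SR-like protein, had the highest ratio of the called genes, with 160 CPM (interval 143 to 179) and 262 CPM (249 to 276), a log2 ratio of 0.58. Srsf2, a core SR protein that binds exonic enhancers, had the lowest, with 267 CPM (244 to 292) and 209 CPM (197 to 222), a log2 ratio of -0.48. The highest counts were those of Srrm2, a speckle scaffold, at 366 ± 48.5 CPM (SD, n = 2), and Srsf5, an SR protein, at 246 ± 5.40 CPM. Per length the mean was 41.3 CPM per kilobase for Srrm2 and 164.5 for Srsf5. Srsf5 was not called, and Srrm2 was called only with library totals. The coding share of these 19 genes had a median of 66.9%, with a minimum of 29.5% in Srsf3. Many of them also carry retained-intron isoforms, and the highest mean shares on that class, 46.9% in Srsf11 and 45.4% in Srsf3, were below the 53.7% of Clk1.

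Tnpo3, the importin that carries phosphorylated SR proteins into the nucleus, averaged 114 ± 18.7 CPM (SD, n = 2) and was called only with library totals, not with TMM (log2 ratio 0.21, adjusted p = 0.251, exact binomial test). The list also held the 3 catalytic subunits of protein phosphatase 1, which removes phosphates from SR proteins. Ppp1cb had 312 and 327 CPM and was not called, whereas Ppp1cc was called as higher in replicate 2, with 174 CPM (interval 155 to 194) and 229 CPM (216 to 242), a log2 ratio of 0.27. Ptpn1, a tyrosine phosphatase reported as a CLK substrate, had 61.1 and 60.8 CPM and was not called.

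**Figure D5:**
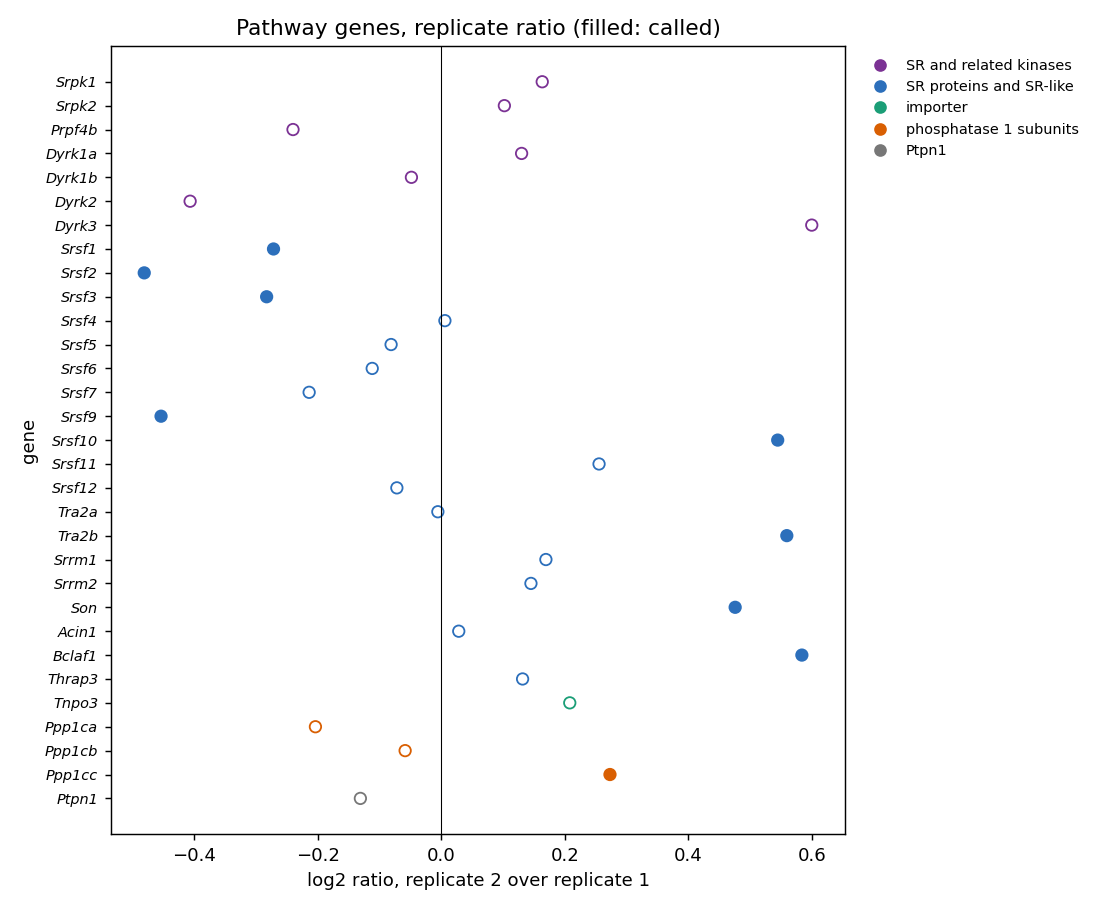
Log2 ratio of replicate 2 over replicate 1 with TMM scaling for the 31 tested pathway genes, coloured by role, with filled points for the 9 genes called by the exact binomial test. The 7 kinases carry no filled point, and the ratios run from -0.48 for Srsf2 to 0.60 for Dyrk3, which was not called.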

How the data were processed

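Polysomal footprints of 2 control brains were analysed. The authors deposited whole-number counts per transcript, 1 column per replicate, not normalized, with annotated lengths in nucleotides (other columns of the same table). Per the submitters' processing notes, Trimmomatic 0.36, Bowtie2 2.2.6, SAMtools and the build GRCm38.p4 were used. The treatment of multiply matching fragments, strand and duplicates is not given in the sources used here.

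Transcript counts were summed per gene and scaled to library totals of 1866831 and 5261878. Ratios used TMM sizes from edgeR 4.0.16 (factors 0.957 and 1.04, genes averaging 10 or more counts). With 1 group a quasi-likelihood model has no contrast, so replicate counts were compared by exact binomial tests (scipy 1.17.1), called at an adjusted p under 0.05 and tested on simulated data. Alternatives used DESeq2 1.42.0 size factors, library totals, other filters and coding or highest transcripts. The pathway genes named are the 2 most abundant per role and the called genes with extreme ratios. Coding transcripts with at least 0.95 of the gene's longest frame count as full length. Members, lists and rules were chosen with earlier results of these data known. RefSeq (GRCm38.p6) gave neighbours of the kinase genes, all 4 matched by symbol; coordinates, protein and promoter sequences were not used here.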

Additional observations from a re-analysis of the deposited data

How the results depend on the processing

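Of 120 alternative values, 97 stayed within the spread of the replicates, the counting interval or 1.5 times the count. The log2 ratio of Clk2 changed sign within its counting interval. It was -0.02 with TMM, 0.10 with library totals, 0.07 on coding transcripts and 0.12 on the highest one. Either replicate alone always lies within 1 SD of the mean of 2, so leaving 1 out could not count as moved. The 97 therefore give no measure of stability. Counting coding transcripts alone lowered the mean level of Clk1 from 23.5 to 4.46 CPM, of Clk2 from 41.1 to 22.8 and of Clk4 from 15.4 to 7.41. The highest transcript alone gave 4.46, 6.27 and 2.94 CPM, by construction, since it leaves out the other isoforms. Mean density per kilobase of coding sequence was 3.07 for Clk1-001, 4.04 for Clk2-001, 19.2 for Clk3-201 and 2.03 for Clk4-001. Per kilobase of transcript it was 2.48, 2.82, 14.8 and 1.51, respectively, with the same ranking of these transcripts. The log2 ratio of Clk1 was 0.67 on coding transcripts and 0.73 on the highest one, in place of 1.34. Both values rest on the same 6 and 30 footprints of Clk1-001 and differ only by the scaling, which was redone for each set. The log2 ratio of Clk4 on its highest transcript was -0.30 in place of 0.87. The retained-intron share of Clk1 was 49.4% over transcripts averaging 5 or more counts, and that of Clk2 was 21.5% with counts divided by length. Under these same settings, the retained-intron share of Clk4 was 12.8% and 41.4%, and its coding share 65.2% and 32.2%. Leaving out either replicate gave 12.3 or 34.8 CPM for Clk1 and 10.2 or 20.7 CPM for Clk4. The exact test of edgeR, given a common dispersion that came from these same 2 libraries, called 11 genes (719 at an unadjusted p under 0.05) and 0 of the pathway list (0 unadjusted) in place of 2861 and 9. Removing the trend with footprint density left Clk1 at 1.17. No paired analysis was possible because there is 1 group. Depth limits Clk1 and Clk4 most, with 23 and 19 footprints in replicate 1.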

Other observations

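The genes next to the kinases were read from a RefSeq table of assembly GRCm38.p6. Ppil3, a peptidyl-prolyl isomerase gene on one side of Clk1, had 24 footprints in replicate 1 and 175 in replicate 2, or 12.9 and 33.3 CPM, beside 12.3 and 34.8 CPM for Clk1. Its log2 ratio of 1.21 was higher than that of 98.0% of the genes tested. Bzw1, on the other side, had 274 and 336 CPM and a log2 ratio of 0.17. The neighbours of Clk2 were Hcn3, an ion channel gene, and Scamp3, a membrane trafficking gene, with log2 ratios of -0.38 and 0.25. Edc3, an mRNA decapping factor next to Clk3, had 44.5 and 52.6 CPM, and Col23a1, next to Clk4, had 25.2 and 13.7 CPM. The use of strand is not stated, and a part of shared fragments in the similar values of Clk1 and Ppil3 was not tested.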
